A study of Phyllostachys edulis with 2 samples.

Results

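PH02Gene44779 is a gene of moso bamboo (Phyllostachys edulis), a giant woody grass, and its row was read in all cells of basal root tips. It was 1 of 50936 genes in the files and 1 of 6 genes that the study's tables place in the GRAS family. Their description of it is chitin-inducible gibberellin-responsive protein 1, after a protein of the wild rice Oryza brachyantha, and they list it under plant hormone signal transduction. The gene was chosen with its abundance and its levels over the cell groups known, so those levels are given as a description and without a test.

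Single-cell RNA was counted in 2 biological replicates of a single condition, root tips of about 2 cm from plants 6 to 8 weeks old. The tips had been digested for 3 h with wall-degrading enzymes into protoplasts, which are cells without walls, and no undigested sample was compared. The files held 15324 barcodes, and 7653 cells of replicate 1 and 7651 cells of replicate 2 had more than 500 genes and were kept. Their medians were 3130 and 3565 UMIs per cell, where a UMI (unique molecular identifier) stands for 1 captured transcript. The 3′ kit tags each transcript at its end, so a level in UMIs per 1000000 UMIs (CPM) needs no division by gene length. The libraries shared 15 cell barcodes by sequence.

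GRAS proteins are plant-specific regulators of transcription, named after GAI, RGA and SCARECROW. The family holds the DELLA proteins, which restrain growth until gibberellin leads to their breakdown, and SCARECROW and SHORT-ROOT, which pattern the ground tissue of the Arabidopsis root. In rice, the relatives CIGR1 and CIGR2 belong to another branch of the family, and their transcripts rise after treatment with a chitin elicitor or with gibberellin.

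PH02Gene44779 was one of the more abundant genes of the root tip. It gave 24634 UMIs in replicate 1 and 26497 in replicate 2, which are 677 and 629 CPM (653 ± 33.6, SD, n = 2). By UMIs it ranked 221st of 37802 detected genes in replicate 1 and 241st of 38167 in replicate 2. At full depth 76.3% of the cells of replicate 1 (95% Wilson interval 75.3% to 77.2%) and 77.8% of those of replicate 2 (76.9% to 78.7%) held at least 1 of its UMIs. A single cell held up to 45 UMIs in replicate 1 and up to 44 in replicate 2. These intervals cover counting error only.

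Among the 210 regulators listed by the study it ranked 11th by mean CPM, and 9th and 11th in the replicates taken singly. The paper states that it selected such factors for high expression in a cell type and high fold change. The list also holds kinases, so it does not stand for all regulators. Directly above it stood the Tify family gene PH02Gene05499 (658 ± 19.1 CPM), PH02Gene17761 (664 ± 6.07 CPM) and PH02Gene11309 (686 ± 5.39 CPM), described as a BTB/POZ and TAZ domain protein. Directly below it stood the NAC family gene PH02Gene10707 (610 ± 23.4 CPM), PH02Gene35076 (608 ± 43.5 CPM), described as CBL-interacting protein kinase 1, and a further NAC gene, PH02Gene19279 (608 ± 10.0 CPM; each SD, n = 2). The means of the 3 neighbours above lie within 1 SD of that of PH02Gene44779, so its rank among them is not resolved.

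The cells fell into 14 re-derived clusters, and a published cluster was matched to whichever re-derived one expressed its marker genes most. Of the 27 markers, 25 had their highest level in the cluster so matched. The matching used these same markers, so this count is no independent check of it. Clusters 0 and 5 took the same cells, called matched Cluster 0 here, and 2 re-derived clusters, of 642 and 116 cells, were the match of none. In the published annotation Cluster 9 is initial cells and Clusters 0, 1, 5 and 10 are ground tissues. Clusters 7, 8, 11 and 12 are root cap, Cluster 2 is transition cells, Cluster 6 is epidermis, and 3 and 4 are undefined. The paper's text also counts Cluster 2 to the root cap, but the root cap clusters here leave it out. Of the 2 markers used for Cluster 1, PH02Gene45651 is placed differently in the paper. The paper's text lists it for Cluster 0 and a supplementary figure for Cluster 5. Here its level peaked in matched Cluster 1, with a mean of 3836 CPM, while matched Cluster 0 averaged 1303. These are all ground tissues, so the conflict touches the cluster numbers and not the tissue. Matching without this marker was not tested. PH02Gene44779 was not among the variable genes the clustering used.

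The gene was lowest in the cells matched to the initial cells. In matched Cluster 9 its level was 215 and 242 CPM, against 991 and 957 CPM for the cells of matched Cluster 0, the largest of the ground tissue clusters. The replicates of the 2 clusters lay far apart, and the level in matched Cluster 9 was 4.27-fold lower (log2 difference -2.09 ± 0.16, SD, n = 2), or 2.27-fold lower with TMM scaling, which sets the library size from the bulk of genes. Against all other kept cells as 1 sum, matched Cluster 9 was lower too (log2 difference -1.59 ± 0.21). By CPM, 24.5% of the 3455 genes with at least 50 CPM were at least 2-fold lower in matched Cluster 9 than in matched Cluster 0 in both replicates and 14.3% were at least 2-fold higher. The balance depended on the scaling, with 9.70% lower and 41.2% higher by TMM and 16.6% lower and 25.5% higher by DESeq2 size factors, while PH02Gene44779 was over 2-fold lower under each.

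The highest levels were in a ground tissue cluster and an undefined one. Matched Cluster 1 had 1089 and 1040 CPM, and matched Cluster 3 had 1048 and 967 CPM. Matched Cluster 0 followed with the values above, and then the smaller unmatched cluster with 884 and 1035 CPM. The replicate ranges of each of these 4 clusters overlapped that of the next, so their order is not resolved.

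Below them matched Cluster 4, undefined in the study, had 863 and 808 CPM, narrowly apart from its neighbours on both sides. The root cap clusters came next. Matched Cluster 7 had 805 and 729 CPM, matched Cluster 11 had 696 and 670 CPM and matched Cluster 8 had 680 and 611 CPM. Matched Clusters 11 and 8 overlapped, and matched Cluster 7 lay above both.

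The lower part of the order held cells of several tissues. Matched Cluster 10 of the ground tissues had 587 and 579 CPM, and the larger unmatched cluster overlapped it with 584 and 560.7 CPM. Matched Cluster 2, the transition cells, had 483 and 474 CPM. Matched Cluster 6, the epidermis, had 471 and 408 CPM and overlapped matched Cluster 12 of the root cap, which had 383 and 454 CPM in only 39 cells. Of the 13 neighbouring pairs in the whole order, 6 overlapped.

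**Figure D1:**
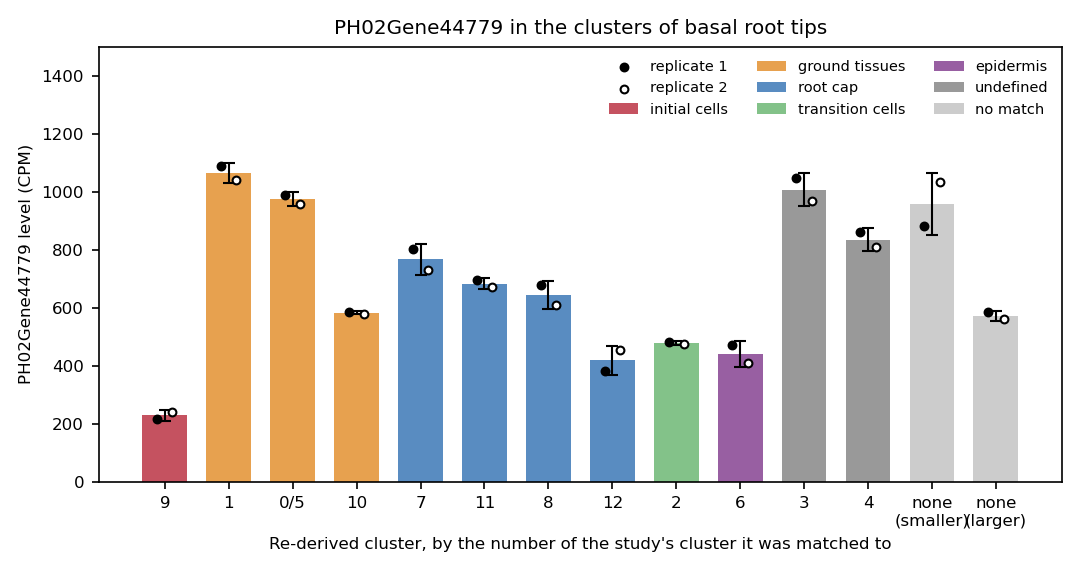
Level of PH02Gene44779 in CPM (UMIs of the gene per 1000000 UMIs) in each re-derived cluster, with bars for the mean of 2 replicates, whiskers for ± 1 SD and a point for each replicate. Clusters are grouped and coloured by the annotated tissue (0/5 is matched Cluster 0, and none marks clusters without a match), and the initial cells, at 215 and 242 CPM, are lowest while matched Cluster 1, at 1089 and 1040 CPM, is highest.

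The highest cluster was 4.66-fold above the lowest. Of the genes with at least 50 CPM, 47.2% had a smaller range over the clusters, and their median was 4.85-fold. Of the 134 other genes whose mean CPM was within a factor of 1.25 of its own, 52.2% had a smaller range, and their median was 4.56-fold. Among the 145 other listed regulators with at least 50 CPM, 72 had a smaller range, and among the 14 within that factor 11 had. The list was selected in part by fold change. UMIs of PH02Gene44779 were found in every cluster, and its level was somewhat higher in replicate 1 than in replicate 2 in 11 of 14 clusters.

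The ground tissue clusters differed among themselves. Matched Cluster 0 was above matched Cluster 10 in both replicates, with the values given above, a 1.67-fold difference (log2 0.74 ± 0.02, SD, n = 2). PH02Gene44779 did not reach a 2-fold difference here, which 11.9% of the 3455 genes did in this direction and 6.48% in the other. The direction held under the other scalings and cell filters that kept these clusters. At resolutions of 0.6 and 1.0, with 30 principal components and with cells of over 200 genes, Cluster 10 took the same cells as root cap Cluster 8, and matched Cluster 0 exceeded those shared cells by 0.24 to 0.71 on the log2 scale. Depth moved with the level inside matched Cluster 10. Its cells above the median depth had 505 and 494 CPM, against 794 and 825 CPM in its shallower cells, and the part of depth in the difference between the clusters was not tested.

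The ground tissue clusters as 1 sum differed little from the root cap clusters as 1 sum. The ground tissue clusters had 947 and 915 CPM and the root cap clusters 736 and 668 CPM, a 1.33-fold difference (log2 0.41 ± 0.06, SD, n = 2), and 8.34% of genes were at least 2-fold higher and 4.89% at least 2-fold lower in the ground tissue clusters by CPM (1.30% and 26.5% with TMM, 3.82% and 11.5% with DESeq2 size factors). The members overlapped, because matched Cluster 10 lay below matched Clusters 7, 8 and 11. The direction rested on the scaling. With TMM scaling the log2 difference was -0.26 ± 0.05, and with DESeq2 size factors it was 0.12 ± 0.05. TMM moved every gene by -0.67 in this comparison and DESeq2 size factors by -0.29, so no order of these tissues is given for PH02Gene44779.

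The lower level in the initial cells kept its direction under the scalings, though not its size. Against matched Cluster 0, matched Cluster 9 was 2.27-fold lower with TMM scaling and 3.13-fold lower with DESeq2 size factors, under which every gene moved up there by 0.91 and 0.45 on the log2 scale. Matched Cluster 9 stayed last of the 14 clusters with DESeq2 size factors and was 13th with TMM, above the 39 cells of matched Cluster 12. At the other end, matched Cluster 1 was 1st by CPM and with DESeq2 size factors and 4th with TMM, where matched Cluster 7 of the root cap was 1st. Matched Cluster 3 was 2nd under each of the 3 scalings.

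**Figure D2:**
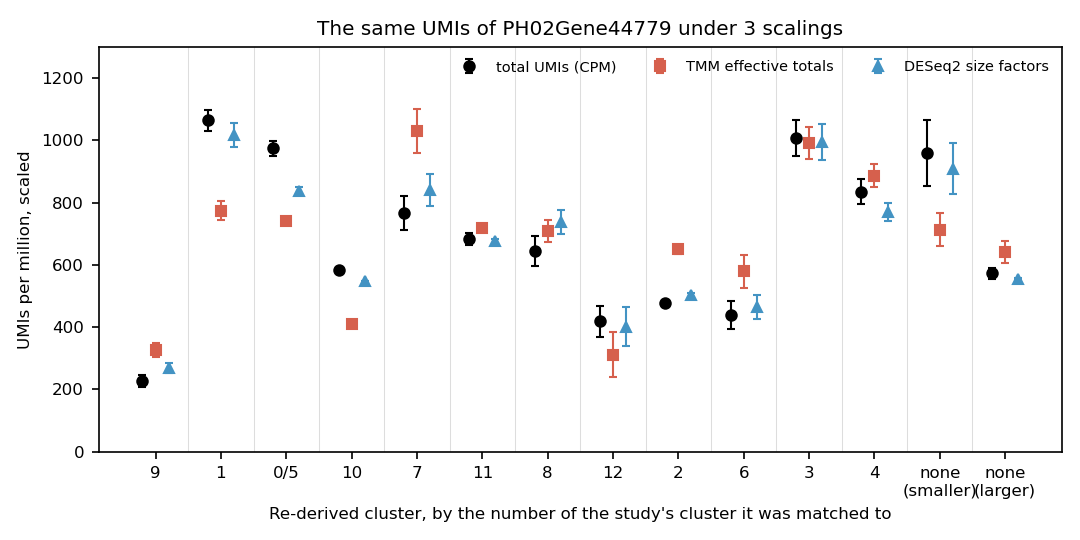
UMIs of PH02Gene44779 per 1000000 in each cluster when the total is taken as counted (CPM), as TMM effective totals or by DESeq2 size factors, with points for the mean of 2 replicates and whiskers for ± 1 SD. The initial cells (9) stay near the bottom throughout, whereas matched Cluster 7 lies below matched Clusters 1 and 0 by CPM and above them with TMM.

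The order by transcripts per cell was another one, because the clusters differed widely in depth. Matched Cluster 0 had a median of 968 UMIs per cell and matched Cluster 9 one of 9384 (means of both replicates). A cell of matched Cluster 0 therefore held only 1.05 UMIs of PH02Gene44779 on average, 13th of 14 clusters, and a cell of matched Cluster 10 held 0.953, the fewest. Cells of matched Cluster 9 held 2.29. Matched Cluster 3 led with 7.95 UMIs per cell, followed by matched Cluster 7 with 6.21 and matched Cluster 4 with 6.09.

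Within a cluster, deeper cells did not have a uniformly higher or lower level. The 13 clusters with at least 50 cells in each replicate were each divided at the median depth. In 5 of them the deeper cells were lower in both replicates and in 3 they were higher. The larger unmatched cluster behaved like matched Cluster 10, with 537 and 510 CPM in deeper cells and 801 and 816 CPM in shallower ones. In matched Cluster 9 the values were close, 219 and 239 CPM in deeper cells and 205 and 249 CPM in shallower ones.

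To compare cells at equal depth, each was thinned at random to 500 of its UMIs, which every kept cell reached. At least 1 UMI of PH02Gene44779 was then found in 31.8% of cells of replicate 1 and 29.2% of replicate 2. The replicates differed by less, 31.5% and 30.9%, after a second random draw. The share was 11% (8.0% to 15%) and 11.8% (8.4% to 16.4%) in matched Cluster 9, against 37.3% (35.2% to 39.3%) and 34.7% (32.7% to 36.8%) in matched Cluster 0. Matched Cluster 1 reached 41.2% and 35.6%, and matched Cluster 3 reached 40.9% and 34.1%.

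No cluster is known to lack the gene, so no share could serve as the background of free RNA. The shares in matched Cluster 9 were the lowest of any cluster, at a median of 8231 and 10536 UMIs per cell before thinning, and their free RNA part was not tested. Over the clusters the shares ran close to those expected if the UMIs had fallen at random over the cells. Thinned cells held only 0.117 to 0.618 UMIs of the gene on average, so these shares say little about the spread between cells. Deep cells, described below, lacked the gene more often than random sampling would leave them in most clusters. The shares of thinned cells with a UMI lay below the random expectation in both replicates in 12 of 14 clusters, by small amounts.

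**Figure D3:**
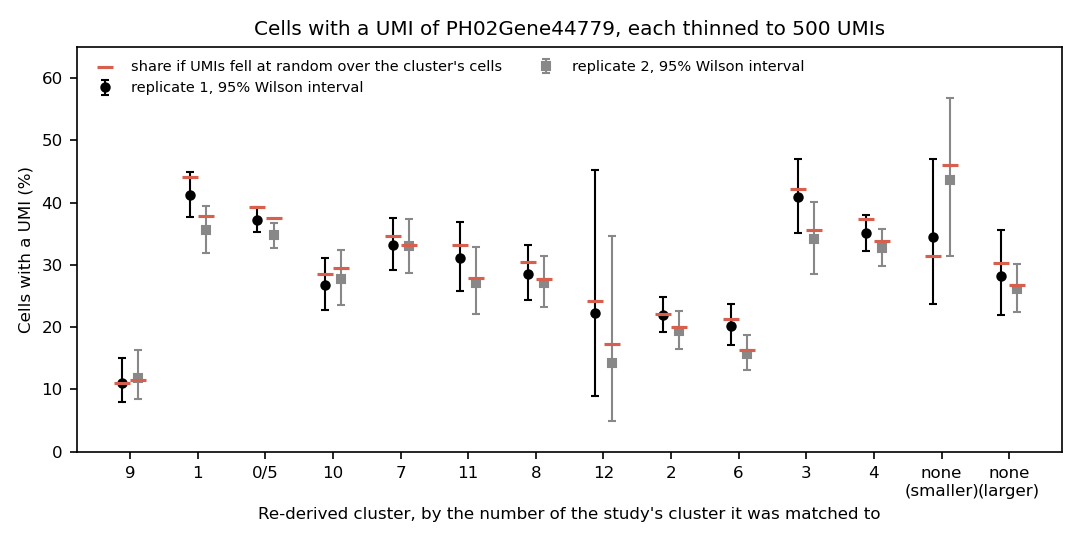
Percentage of cells in each cluster with at least 1 UMI of PH02Gene44779 after every cell was thinned to 500 UMIs, for each replicate with its 95% Wilson interval, beside the share expected if the cluster's UMIs fell at random over its cells (red dashes). Shares in the initial cells were 11% and 11.8%, and the observed points sit at or slightly below the dashes in most clusters.

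The spread from cell to cell was set beside that of genes of like abundance. At 500 UMIs per cell the variance of PH02Gene44779 was 0.946 to 1.22 times its mean (median 1.10) over 23 sums of cluster and replicate with at least 200 cells. A ratio of 1 is what random sampling gives. Genes whose mean was within a factor of 1.25, between 60 and 380 genes per sum, had a median ratio of 1.12. The share of them with a smaller ratio than PH02Gene44779 had a median of 51.8% and ran between 9.68% and 80.8%. It was 74.6% and 80.8% in matched Cluster 0 and 66.7% and 69.0% in matched Cluster 1, against 29.4% and 17.3% in matched Cluster 7.

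The UMIs per cell were also read in deep cells, where free RNA can add UMIs and its part was not tested. Among cells with at least 5000 UMIs, 0 of 201 and 1 of 222 cells of matched Cluster 3 lacked the gene, and the count of 0 allows a share of up to 1.49%. The median was 8 UMIs of the gene in both replicates. In matched Cluster 7, 2.87% and 2.75% of such cells had none, and the medians were 7 and 6 UMIs. In matched Cluster 2 the share without was 10.6% and 9.68%, and in matched Cluster 6 it was 5.82% and 9.53%. Matched Cluster 9 held the largest share without the gene among clusters with at least 50 such cells, 24.2% and 11.2%, with a median of 2 UMIs in both replicates. Random sampling at the cluster's level would leave 14.7% and 8.65% of the cells of matched Cluster 9 without it, 0.328% and 0.432% of those of matched Cluster 7, and 1.81% to 2.67% of those of matched Clusters 2 and 6.

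PH02Gene44779 was the most abundant of the 6 GRAS genes and held 48.1% of their UMIs. PH02Gene08687, described like it as chitin-inducible gibberellin-responsive protein 1, came second with 518 and 484 CPM and 36.9% of the UMIs. PH02Gene23780 (92.5 ± 5.25 CPM), PH02Gene17912 (69.9 ± 0.25 CPM) and PH02Gene13317 (33.7 ± 0.91 CPM) were much lower. PH02Gene17912 and PH02Gene13317 carry the description of a chitin-inducible gibberellin-responsive protein too. PH02Gene21484, which the study's tables pair with Arabidopsis SCARECROW, had 7.43 ± 0.91 CPM (each SD, n = 2). No sequence of these genes was used here, so how alike they are, and whether reads of near-identical copies were shared among them, was not tested.

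The GRAS genes did not share one pattern. PH02Gene08687 was lowest in matched Cluster 9, at 221 and 228 CPM, where matched Cluster 0 had 569 and 574 CPM. PH02Gene17912 was low there too, at 41 and 41.8 CPM, where matched Cluster 0 had 93.7 and 108 CPM. By contrast, PH02Gene23780 stood at 97.5 and 101 CPM in matched Cluster 9, where matched Cluster 0 had 61.3 and 68.2 CPM. Its highest mean was in the transition cells of matched Cluster 2 (158 and 136 CPM). Matched Cluster 12 overlapped these with 54.7 and 164 CPM, from only 3 and 13 UMIs. Of the 3 other GRAS genes with at least 50 CPM, 2 were at least 2-fold lower in matched Cluster 9 than in matched Cluster 0 in both replicates, against 24.5% of all genes, but none was with TMM scaling (9.70% of all genes) or DESeq2 size factors (16.6%).

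PH02Gene21484 had its highest mean in matched Cluster 10, a cluster in which PH02Gene44779 was among the lower ones. Its level there was 22.2 and 38.6 CPM from 15 and 26 UMIs, which overlapped matched Cluster 1 with 10.6 and 25.1 CPM. PH02Gene13317 also had its highest mean in matched Cluster 10, with 75.6 and 87.6 CPM. Matched Cluster 1 overlapped it with 82.3 and 77.2 CPM, so neither peak is resolved. The share of PH02Gene44779 in all GRAS UMIs was 59.8% ± 1.18 in matched Cluster 3 and 54.2% ± 1.2 in matched Cluster 0, and lowest in matched Cluster 9, 37.2% ± 1.60 (SD, n = 2).

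The ratio of the 2 abundant genes needs no scaling, since both were counted in the same cells. In matched Cluster 3 there were 2.17 and 2.05 UMIs of PH02Gene44779 for each UMI of PH02Gene08687. Matched Cluster 0 followed with 1.74 and 1.67, and matched Cluster 4 with 1.51 and 1.52. The genes were at par in matched Cluster 9 (0.974 and 1.06), in matched Cluster 11 (0.988 and 1.05) and in matched Cluster 8 (0.979 and 0.936). These groups of clusters did not overlap, so the excess of PH02Gene44779 over PH02Gene08687 varied between cell groups by more than the replicates did.

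Within the ground tissue clusters the ratio was 1.46 and 1.41 in matched Cluster 1 and 1.30 and 1.22 in matched Cluster 10, both below matched Cluster 0. In the root cap, matched Cluster 7 (1.12 and 1.14) lay above matched Clusters 8 and 11, while the ratio of 1.5 in both replicates of matched Cluster 12 rested on 21 and 36 UMIs of PH02Gene44779.

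**Figure D4:**
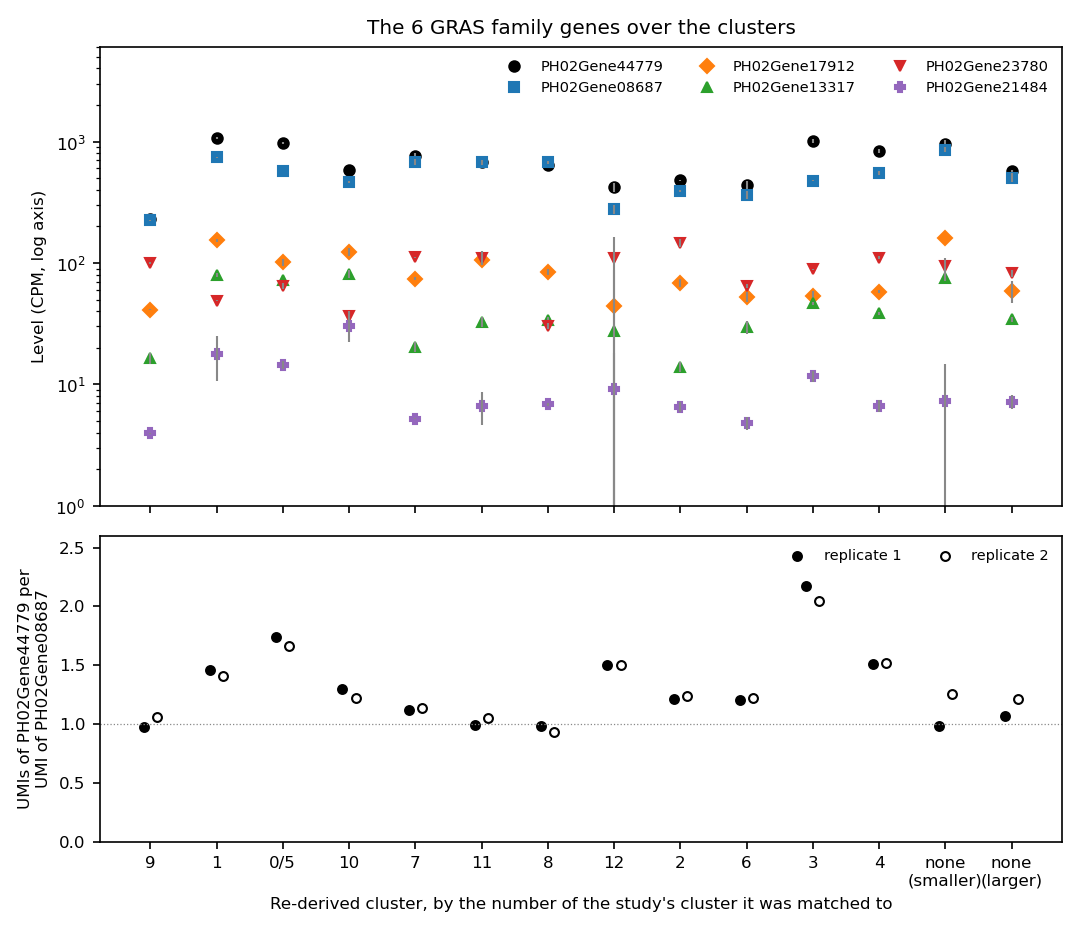
Upper plot, level of the 6 GRAS family genes in each cluster on a log axis (mean of 2 replicates, grey lines for the range of both, running off the axis where a replicate had 0 UMIs). Lower plot, UMIs of PH02Gene44779 per UMI of PH02Gene08687 in each replicate, which are near 1 in the initial cells (0.974 and 1.06) and highest in matched Cluster 3 (2.17 and 2.05).

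Likeness of other genes to PH02Gene44779 was measured as Pearson's r of log2(CPM + 1) over the 14 clusters, in each replicate alone, for the 3454 other genes with at least 50 CPM. The clusters share 2 libraries and differ in depth, so r describes these clusters and carries no p. No gene reached 0.9 in both replicates (0% of genes), 18 reached 0.8 and 5 were at or under -0.8. The median r of all genes was 0.10 in replicate 1 and 0.02 in replicate 2.

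The 5 genes most like it were all lowest in matched Cluster 9, which their choice by r with PH02Gene44779 favoured. PH02Gene25333, described as an ATP-binding subunit of the Clp protease, a chaperone that unfolds proteins, had r of 0.89 in both replicates, and its mean was 7.90 CPM for matched Cluster 9 and 128 CPM for matched Cluster 0. PH02Gene10893 (r of 0.92 and 0.87) and PH02Gene29037 (0.87 and 0.89) carry no description in the tables used. PH02Gene28313 (0.87 in both) and PH02Gene17081 (0.87 and 0.86) are described as thaumatin-like proteins, a family of defence proteins. In matched Cluster 9 PH02Gene28313 gave 31.5 and 27.5 CPM, where matched Cluster 0 gave 319 and 287 CPM. PH02Gene08687 was the seventh most alike, with r of 0.84 and 0.87.

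The 3 genes least like it were PH02Gene15179 (r of -0.90 and -0.89), PH02Gene19701 (-0.85 and -0.84) and PH02Gene21661 (-0.83 and -0.87), for none of which a function is given. PH02Gene15179 peaked in matched Cluster 9 at 338 and 332 CPM, where matched Cluster 0 gave 117 and 118 CPM. With TMM scaling the r of PH02Gene15179 moved to -0.41 and -0.53, and that of PH02Gene25333 to 0.76 and 0.77, while PH02Gene08687 kept 0.83 and 0.82. Without matched Cluster 9, PH02Gene15179 had -0.87 and -0.88, and PH02Gene25333 had 0.80 and 0.85, while PH02Gene08687 dropped to 0.74 and 0.79.

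**Figure D5:**
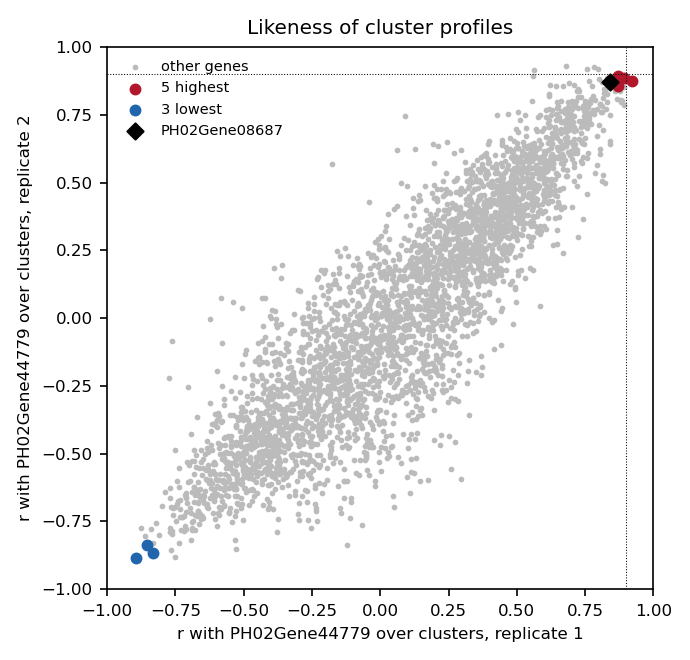
Pearson's r with PH02Gene44779 over the 14 clusters in replicate 1 (horizontal) and replicate 2 (vertical), with a point for each of 3454 genes. Dotted lines mark 0.9, the corner beyond both lines is empty, and the 5 highest genes, the 3 lowest and PH02Gene08687 (0.84 and 0.87) are drawn larger.

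Across single cells inside clusters, no gene moved closely with PH02Gene44779 at 500 UMIs per cell. The r of log(1 + UMIs), averaged over clusters with at least 200 cells, was at most 0.05 and at least -0.04 when the weaker of both replicates is taken, and no gene passed 0.1 in either direction (0% of genes). At this depth the weak values are no finding. The 5 highest were PH02Gene45651, the ground tissue gene used here as a marker of Cluster 1 (0.05 and 0.06), PH02Gene34667 (0.05 in both), PH02Gene25634, described as the co-chaperone BAG family regulator 6 (0.04 and 0.05), PH02Gene13535 (0.04 and 0.05) and PH02Gene08687 (0.04 in both). The 3 lowest were PH02Gene19873, described as a blue copper protein (-0.04 in both), PH02Gene46055 (-0.04 in both) and PH02Gene08237 (-0.04 in both).

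Hormone and elicitor genes gave the setting of the gene's description. Lists for plant hormone signalling, for gibberellin and for chitin were read from the visible part of the study's marker table for Clusters 0, 1 and 2. They were thus chosen on these samples, and their direction is no independent evidence. PH02Gene44779 is left out of the counts that follow.

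Of 19 other hormone signalling genes, 12 had at least 50 CPM, and 8 of these were at least 2-fold lower in matched Cluster 9 than in matched Cluster 0 in both replicates while 2 were at least 2-fold higher, where 24.5% and 14.3% of all genes were. The median log2 difference of the 12 genes was -1.84, against -0.11 over all genes tested, and with TMM scaling 5 were lower and 2 higher, where 9.70% and 41.2% of all genes were. Closest to PH02Gene44779 over clusters were PH02Gene02744, a xyloglucan endotransglucosylase/hydrolase, an enzyme that remodels the cell wall (r of 0.69 and 0.70), and PH02Gene46713, described as bHLH18 (0.61 and 0.65). Most opposed were PH02Gene21882, described as TIFY 10b, a repressor in jasmonate signalling (-0.41 and -0.62), and PH02Gene38178, described as the defence protein pathogenesis-related protein 1 (-0.20 and -0.44). Mean levels of PH02Gene21882 were 1672 CPM for matched Cluster 9 and 296 CPM for matched Cluster 0, and those of PH02Gene38178 were 4561 CPM for matched Cluster 9 and 1127 CPM for matched Cluster 0.

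Of 5 genes annotated to gibberellin, 3 had at least 50 CPM, and 2 of them were at least 2-fold lower in matched Cluster 9, as were 24.5% of all genes. The count was 0 with TMM scaling (9.70% of all genes) and 2 with DESeq2 size factors (16.6%). PH02Gene13126 (r of 0.78 and 0.76) was closest to PH02Gene44779, followed by PH02Gene19951 (0.73 and 0.58), described as a synthase of the galactolipid monogalactosyldiacylglycerol. PH02Gene04800, described as WRKY60, was least alike (0.28 and 0.36). The list's median difference was -1.81.

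Of 15 genes annotated to chitin, 13 had at least 50 CPM, with 9 at least 2-fold lower and 1 at least 2-fold higher in matched Cluster 9, where 24.5% and 14.3% of all genes were, and a median of -2.23 against -0.11 over all genes. With TMM scaling 8 were lower and 2 higher, where 9.70% and 41.2% of all genes were. The closest were PH02Gene29649 (r of 0.71 and 0.78) and PH02Gene05710 (0.70 in both), both described as heat stress transcription factor A-3. The most opposed were PH02Gene35046 (-0.52 and -0.59) and PH02Gene38035 (-0.22 and -0.17). Several members that were lower in matched Cluster 9 peaked elsewhere than PH02Gene44779, among them PH02Gene42845, described as WRKY62-like, with a mean of 633 CPM for matched Cluster 8.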

How the data were processed

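Both deposited matrices came from Cell Ranger 5.0.1 with STAR as aligner, run by the authors, and hold raw UMI counts of genes in barcodes. The version of the genome annotation is not given in the sources used here. Cells with more than 500 genes were kept. The study's mitochondrial filter was not used, since identifiers do not name mitochondrial genes, and doublets were neither called nor removed. The study kept fewer cells, so the 15304 kept here include some that it removed. Seurat 5.3.0 (R 4.3.3) merged the replicates without integration, log-normalized, chose 2000 variable genes, removed 30 that the study names, and clustered on 20 principal components at a resolution of 0.8. Matching took, for a study cluster, the largest z-score of log2(CPM + 1) averaged over its markers. The narrowest margins were for Cluster 5, with 1 marker (2.11, against 1.94 in matched Cluster 1), and for Cluster 2 (1.79, against 1.49 in matched Cluster 9). Names of the tissues are the study's, and rebuilt clusters may hold other cells than the study's. CPM were computed from the UMI sum of each cluster in each replicate. TMM (edgeR 4.0.16) and DESeq2 1.42.0 size factors, other clusterings, cell filters and thinning depths were alternatives. Correlations used numpy 2.4.6 and were tested on simulated data. Co-varying genes were planted there only among genes of at least 500 CPM, so recovery of lower genes was not tested. The matched clusters' samples are 2 replicates of 1 group, so SDs measure the spread between 2 libraries.

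The gene, its lists and the measures were chosen with earlier results of these data known. Named genes were PH02Gene44779, the 5 other GRAS genes, the 5 highest and 3 lowest by r over clusters and across cells (ranked by the weaker replicate), 3 regulators on either side in CPM, and the 2 highest and 2 lowest by r of each list among genes with at least 50 CPM. Genes named beyond this rule were chosen after their values were seen: PH02Gene42845 and the genes of the deeper thinning.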

Additional observations from a re-analysis of the deposited data

How the results depend on the processing

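No paired analysis was possible because no test was run and the design has 1 group. The log2 level of matched Cluster 0 over matched Cluster 10, 0.74 as reported, was 0.71 and 0.24 at resolutions of 0.6 and 1.0, 0.42 with 30 principal components, 0.78 with named genes kept, 0.50 with cells of over 200 genes, 0.90 in cells with at least 2000 UMIs, 0.85 with TMM, 0.61 with DESeq2 size factors and 0.50 with cells thinned before summing. In the clusterings with resolutions of 0.6 and 1.0, 30 principal components or over 200 genes, the cells compared as Cluster 10 were those of Cluster 8 too. Ground tissue over root cap clusters, 0.41 as reported, was -0.26 with TMM, 0.12 with DESeq2 size factors and 0.094 in cells with at least 2000 UMIs; it gave no value at resolutions of 0.6 and 1.0, with 30 principal components and with over 200 genes, where Clusters 10 and 8 took the same cells. Matched Cluster 9 over all other cells, a comparison chosen after seeing the data, was -1.22 with TMM and -1.36 with DESeq2 size factors, and gave no value at a resolution of 0.6 or with 30 principal components, where Cluster 2 took the same cells. The overall level was 688 CPM without the 5% deepest cells and 788 CPM with cells thinned before summing. The share of cells was 46.9% and 64.5% at 1000 and 2000 UMIs, by the greater depth and the shallower cells left out, and 26.9% at 500 UMIs in cells that had at least 2000. Counts of genes with r of at least 0.9, 0 as reported, were 6 at a resolution of 0.6, 1 with 30 principal components, 1 with over 200 genes, 1 with Spearman's rho, and 3 without clusters under 50 cells per replicate (chosen after seeing the data). Counts across cells, 0 as reported, were 14 at 2000 UMIs and 2 across all cells of a replicate. The causes were not tested. Leaving out either replicate gave 629 to 677 CPM, 0.72 to 0.76, 0.36 to 0.45 and -1.73 to -1.44 for the 3 log2 ratios in the order above, shares of 29.2% to 31.8%, 1 to 5 genes with r of at least 0.9 and 0 to 0 across cells.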

Other observations

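At 2000 UMIs per cell, which 4421 cells of replicate 1 and 4532 of replicate 2 reached, some genes had a larger r with PH02Gene44779 across cells inside clusters. PH02Gene34667 was highest with 0.17 in both replicates, followed by PH02Gene49989 with 0.15 in both and by the GRAS gene PH02Gene08687 with 0.14 and 0.15. PH02Gene31762, described as NADPH-cytochrome P450 reductase, the partner that passes electrons to cytochrome P450 enzymes, had 0.12 and 0.15. PH02Gene01025, described as a laccase, an enzyme family that oxidizes phenols in the cell wall, had 0.11 in both. The lowest values belonged to PH02Gene25552, with -0.09 and -0.11. All these cells come from the deeper clusters or are the deeper cells of the shallow ones, and the r are descriptions without a p.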
